A study of Mus musculus with 20 samples.

Results

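Interferon-stimulated genes are the genes that a cell switches on when an interferon binds its receptor. A list of 33 genes was followed in mouse livers: 16 type I effectors, 6 regulators, 7 gamma-induced GTPases and 4 interferon receptors. The receptors were listed because they receive the interferon signal. A gene was read from the brightest of the probe sets that name it alone, which left 30 of the 33 genes, among 18193 genes measured in the same way. The 30 were 14 type I effectors, 6 regulators, 6 GTPases and 4 receptors. Isg15, the ubiquitin-like modifier, and Tgtp1, a GTPase, had only probe sets shared with another gene, and Ifi44 was not analysed here because no probe set in the annotation used names it.

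The livers came from 20 male C57BL/6J mice, 1 array per mouse and 5 mice per group. Feeding began at 7 weeks of age and lasted 12 weeks, and the livers were taken after a fast of 2 h. CL + AX mice ate the CL diet with 0.02% astaxanthin, a carotenoid antioxidant. CL + VE mice ate the CL diet with 0.02% vitamin E. CL mice ate the CL diet alone, in which fat supplied 60% of the calories, and which held 0.5% sodium cholate, a bile salt, and 1.25% cholesterol. NC mice ate CRF-1 chow, so that fat, cholesterol and cholate differ together between CL and NC. The CL diet served as a model of nonalcoholic steatohepatitis (NASH), a fatty liver disease with inflammation and scarring.

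Type I interferons signal through the receptor of Ifnar1 and Ifnar2 to a complex that holds STAT2 and IRF9 and binds interferon-stimulated response elements (ISRE). Interferon gamma, made mainly by T cells and natural killer cells, signals through Ifngr1 and Ifngr2 to gamma-activated sequences (GAS) in its target genes, and it induces IRF1 and the GTPases that attack the vacuoles of intracellular pathogens. The effectors of type I interferon instead block the steps of viral growth, and many genes answer to both interferons. In the liver, Kupffer cells, infiltrating macrophages, endothelial cells and hepatocytes can all respond.

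The ISRE core GAAANNGAAA (N, any base; either strand) and the GAS TTCNNNGAA were searched for in the RefSeq promoter windows of GRCm38.p6, which run from 250 bases before each annotated start to 50 after it. Of the 33 genes, 29 had a window. Mx1, Mx2, Usp18 and Iigp1 had none. The ISRE core was present in 13 of the 29 (44.8%), against 1079 of all 27025 genes with a window (3.99%). It was found in 7 of 13 type I effectors, 1 of 6 regulators, 5 of 6 GTPases and 0 of 4 receptors. A GAS was present in 10 of the 29 (34.5%), against 2582 of all genes (9.55%), and the 10 were 4 type I effectors, 2 regulators, 2 GTPases and 2 receptors. The listed genes other than the receptors are known targets of factors that bind these elements. The higher shares can thus follow from how the list was chosen, and no test of enrichment was made. The stretches below are shown because they hold the motifs, and they belong to 10 genes whose values follow and to Tgtp1 and Isg15, for which no value is given. Each reads in the direction of its gene, and the capitals mark the motifs.
Gbp2 (chr3:142620584-142620633, + strand): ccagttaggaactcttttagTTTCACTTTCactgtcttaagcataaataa
Gbp3 (chr3:142559979-142560034, + strand): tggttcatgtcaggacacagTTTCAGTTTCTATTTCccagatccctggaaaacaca
Irgm1 (chr11:48871421-48871470, - strand): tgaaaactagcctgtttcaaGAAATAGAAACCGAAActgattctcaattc
Igtp (chr11:58199491-58199551, + strand): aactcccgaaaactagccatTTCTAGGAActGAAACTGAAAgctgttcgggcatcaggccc
Tgtp1 (chr11:48992294-48992354, - strand): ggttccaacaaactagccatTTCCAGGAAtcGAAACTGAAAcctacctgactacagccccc
Bst2 (chr8:71537567-71537628, - strand): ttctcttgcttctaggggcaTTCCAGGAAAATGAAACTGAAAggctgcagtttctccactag
Ifit1 (chr19:34640765-34640833, + strand): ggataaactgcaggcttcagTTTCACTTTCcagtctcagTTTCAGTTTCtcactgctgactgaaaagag
Ifit3 (chr19:34583353-34583436, + strand): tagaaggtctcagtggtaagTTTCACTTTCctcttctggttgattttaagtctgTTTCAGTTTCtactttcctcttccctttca
Isg15 (chr4:156200855-156200916, - strand): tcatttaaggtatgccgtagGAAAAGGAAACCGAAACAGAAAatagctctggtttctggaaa
Irf1 (chr11:53769904-53769952, + strand): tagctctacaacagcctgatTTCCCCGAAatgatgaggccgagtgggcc
Irf8 (chr8:120736167-120736233, + strand): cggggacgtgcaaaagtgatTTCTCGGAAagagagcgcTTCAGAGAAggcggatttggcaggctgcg
Stat2 (chr10:128270256-128270305, + strand): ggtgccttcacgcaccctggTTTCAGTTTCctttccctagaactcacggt
In Igtp and Tgtp1 a GAS stood directly upstream of an ISRE core, and in Bst2 the GAS and the first core overlapped. Bst2, Gbp3, Irgm1 and Isg15 held overlapping ISRE cores. Irf1 and Irf8 held GAS and no ISRE core. A match describes these letters and is not a site shown to be bound.

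Between the arrays as a whole, CL + AX, CL + VE and CL differed from NC in more than the listed genes. The median deposited signal of an array was 26.4 to 27.7 in CL + AX, 17.0 to 20.7 in CL + VE, 19.4 to 24.8 in CL and 13.0 to 18.8 in NC, and quantile normalization removed this difference before any test. The log2 ratio of the 3′ to the 5′ Gapdh control probe set, a measure of how much full-length RNA was labelled, averaged -0.14 ± 0.051 in CL + AX, -0.033 ± 0.12 in CL + VE, -0.17 ± 0.062 in CL and 0.57 ± 0.14 in NC (SD, n = 5 each). For the Actb control it averaged 1.16 ± 0.070 in CL + AX, 1.43 ± 0.082 in CL + VE, 1.14 ± 0.086 in CL and 1.66 ± 0.17 in NC. By Actb, every CL + VE array was above every CL and CL + AX array and below every NC array. All groups read as liver, with the 9 measured hepatocyte markers between the 97.8th and the 100th percentile of genes. The 14 macrophage and Kupffer cell markers had a mean log2 signal of 8.69 to 9.71 in CL + AX, 8.52 to 9.50 in CL + VE, 8.60 to 9.96 in CL and 6.52 to 8.08 in NC, and 13 of the 14 were called higher in CL than in NC. Their summed linear signal was 11310 to 25932 in CL and 2501 to 7491 in NC, and the dimmest marker, Itgam, was at the 26.6th percentile of genes. The 13 T and NK cell markers were dim, with a summed signal of 254 to 393 in CL and 135 to 203 in NC, and 5 of them (Cd3g, Cd3d, Cd2, Klrd1 and Nkg7) were called higher. Markers of some other cells moved too: 6 of 7 stellate cell, 5 of 8 endothelial cell and 2 of 6 dendritic cell markers were called higher and 0 lower, with mean log2 signals of 8.21 to 9.15, 7.24 to 7.47 and 4.33 to 5.15 in CL and 7.18 to 7.71, 5.82 to 7.05 and 3.20 to 4.24 in NC. Of the B cell and plasma cell markers 1 of 5 was called higher, and of the neutrophil markers 0 of 5 were called. Among all genes 12.0% were called higher and 11.3% lower. The 9 hepatocyte markers averaged 13.03 to 13.13 in CL and 13.13 to 13.22 in NC, and 1 of them was called lower. In RNA from whole liver, more cells of a type and more RNA per cell cannot be told apart. The part of cell makeup and of RNA quality in the results below was not tested.

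The first comparison asked which of the genes differed with the CL diet. In CL against NC livers, 17 of the 30 genes were higher and 1 was lower at an adjusted p under 0.05 (limma, Benjamini-Hochberg over all probe sets), while 12.0% of all 18193 genes were higher and 11.3% lower. All 30 lay at or above the median signal of all probe sets, and among the 11398 genes that did so 17.6% were higher and 16.9% lower. Of all calls 51.6% were higher, against 96% on the signals as deposited, 38.2% with the medians of the arrays made equal (median centring) and 59.8% with their trimmed means made equal (trimmed-mean scaling). The called genes of the list were 5 of 6 GTPases, 5 of 6 regulators, 6 of 14 type I effectors and 1 of 4 receptors. In 12 of the 30 genes every CL array lay above every NC array, against 8.07% of all genes. The median log2 fold change was 0.95 for the GTPases, 0.67 for the regulators, 0.45 for the type I effectors and 0.01 for the receptors, with -0.04 for all genes. The receptor value depends on the probe sets: with the mean of each gene's probe sets it lay 0.43 above the median of all genes. By the methods' t-test, which estimates the spread of each gene from that gene alone, 6 of the 30 were called higher (Bst2, Xaf1, Irf8, Gbp2, Ifi47 and Ifngr1) and 0 lower, against 5.18% and 5.58% of all genes. The single lower gene by limma was Isg20, an exonuclease that degrades viral RNA.

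**Figure D1:**
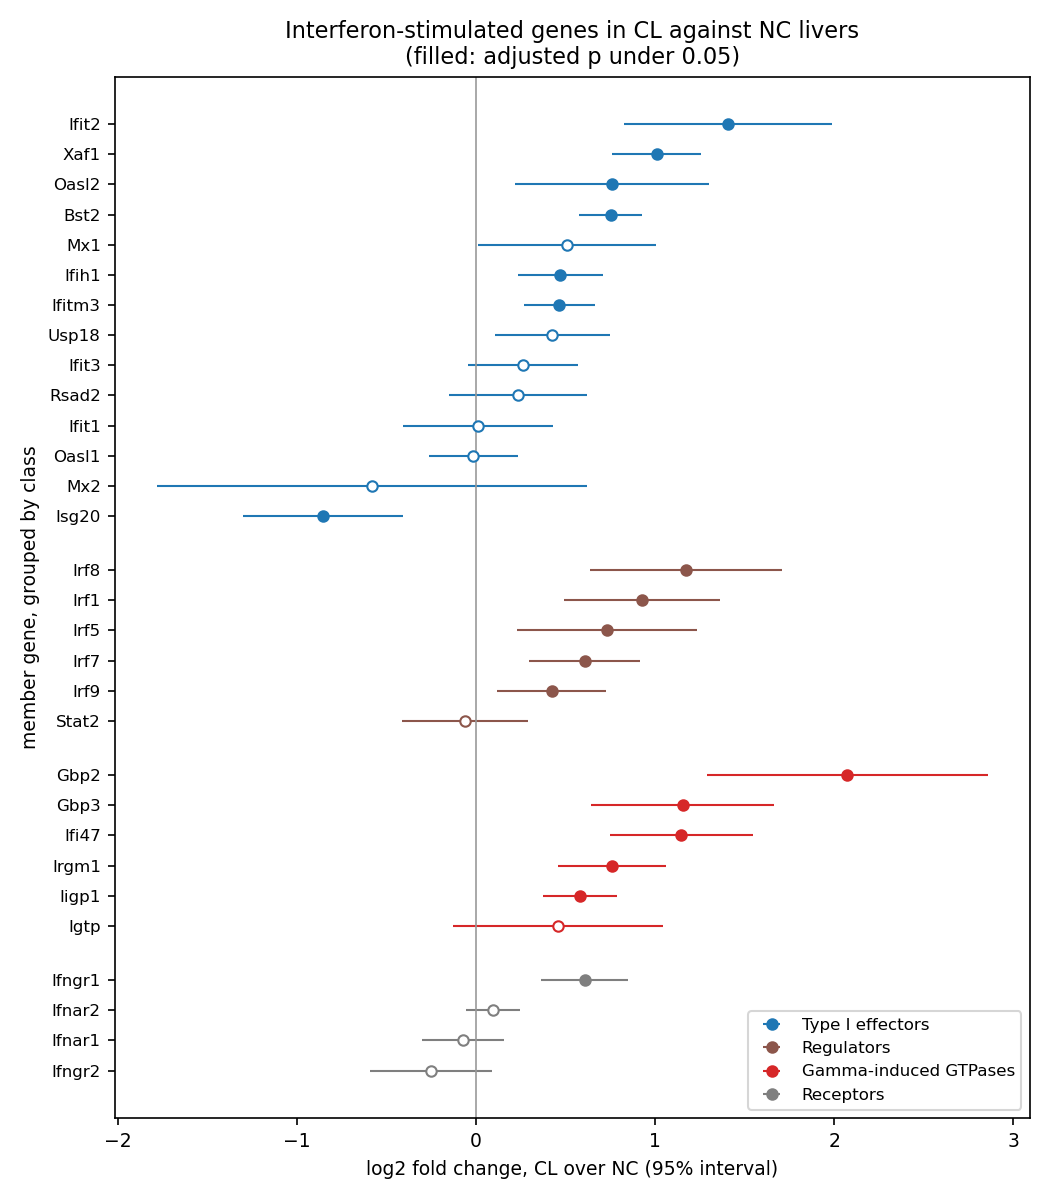
Log2 fold change of each of the 30 genes in CL over NC livers (horizontal axis) with its 95% interval, grouped by class, from 5 arrays per group. Filled points are the 18 genes with an adjusted p under 0.05, and Gbp2 at 2.07 and Isg20 at -0.85 are the ends of the range.

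Among the GTPases, Gbp2 had the largest fold change of the 30 genes. Gbp2, a guanylate-binding protein that coats pathogen vacuoles, had log2 signals of 8.89, 8.42, 7.55, 6.99 and 7.26 in CL livers, against 6.01, 5.57, 5.03, 6.24 and 5.90 in NC livers. It was 4.21 times higher in CL (log2 fold change 2.07 ± 0.38, SE, adjusted p = 0.00045, limma), and its other probe set gave 2.28. The lowest CL liver was above the highest NC liver, and the CL livers spread over a wider range. The brightest Gbp2 probe set is of a type that can share probes with similar transcripts. Ifi47, an immunity-related GTPase also called IRG-47, measured 10.19, 9.41, 9.31, 9.15 and 8.99 in CL livers and 8.17, 8.60, 8.20, 8.68 and 7.67 in NC livers. That gave a log2 fold change of 1.15 ± 0.19 (adjusted p = 0.000196, limma).

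Irgm1, which governs the loading of the other immunity-related GTPases onto membranes, had log2 signals of 9.41, 8.55, 8.83, 8.66 and 9.01 in CL livers and 8.22, 7.98, 8.22, 8.03 and 8.22 in NC livers. The NC livers lay within a narrow band, and the fold change was 0.76 ± 0.15 on the log2 scale (adjusted p = 0.00071, limma). Iigp1, or Irga6, which helps to rupture the vacuole of Toxoplasma, was the second brightest of the 30 genes and measured 12.83, 12.31, 12.56, 12.17 and 12.43 in CL livers, against 12.08, 11.86, 11.85, 11.83 and 11.78 in NC livers. Its log2 fold change was 0.58 ± 0.10 (adjusted p = 0.00025, limma). With 1 scaling factor per array the call was lost, at 0.18 under median centring and 0.33 under trimmed-mean scaling. Gbp3, the neighbour of Gbp2 on chromosome 3, was 1.15 higher (adjusted p = 0.0018, limma), and 1 NC liver overlapped the CL range.

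Igtp, or Irgm3, a partner of Irgm1, was the only measured GTPase not called. Its log2 signals were 10.88, 9.48, 9.24, 8.92 and 9.21 in CL livers and 8.91, 9.09, 9.0, 9.26 and 9.17 in NC livers (log2 fold change 0.46, 95% interval -0.13 to 1.04, adjusted p = 0.31, limma). One CL liver stood 1.41 above the next, and without it and the first CL + AX liver, a choice made after seeing the data, the fold change was 0.13. Gbp2 was 1.81 without the same 2 livers.

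Of the type I effectors, Bst2 and Xaf1 had the smallest p. Bst2, or tetherin, which holds budding virus on the cell surface, measured 10.79, 10.69, 10.69, 10.56 and 10.53 in CL livers, against 9.59, 9.89, 10.17, 9.87 and 9.98 in NC livers. The CL livers spanned less than the NC livers and did not overlap them (log2 fold change 0.75 ± 0.084, adjusted p = 2.6e-06, limma). Xaf1, which promotes apoptosis by binding XIAP, measured 6.92, 7.11, 6.91, 6.74 and 6.88 in CL livers and 5.56, 6.08, 6.09, 6.0 and 5.80 in NC livers. That was 2.01 times higher (log2 fold change 1.01 ± 0.12, adjusted p = 4.4e-06, limma), whereas a dimmer probe set of the gene gave 0.14.

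Ifit2, which binds viral RNA and inhibits translation, had the largest change of the class. It measured 5.66, 6.93, 5.42, 5.92 and 5.37 in CL livers, against 4.26, 4.07, 4.76, 4.66 and 4.53 in NC livers (log2 fold change 1.41 ± 0.28, adjusted p = 0.00102, limma). The second CL liver was 1.01 above the next. Ifitm3, which blocks the fusion of viruses with endosomes, was the brightest of the 30 genes and measured 12.90, 12.93, 12.69, 12.78 and 12.81 in CL livers and 12.03, 12.66, 12.47, 12.53 and 12.08 in NC livers. The margin between its groups was small and the fold change 0.47 ± 0.10 (adjusted p = 0.0013, limma), with 0.00699 under median centring and 0.15 under trimmed-mean scaling, where it was not called. Ifih1, the RNA sensor MDA5, measured 8.79, 8.72, 8.72, 8.53 and 8.57 in CL livers, against 8.04, 8.51, 8.29, 8.37 and 7.77 in NC livers, a fold change of 0.47 ± 0.11 on the log2 scale (adjusted p = 0.0055, limma).

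The other type I effectors divided. Oasl2, a 2′-5′ oligoadenylate synthetase-like protein, measured 5.27, 7.04, 5.32, 6.09 and 5.21 in CL livers and 4.94, 5.0, 4.95, 4.96 and 5.27 in NC livers (log2 fold change 0.76, adjusted p = 0.047, limma). The groups overlapped at 1 NC liver, and the call was lost in 14 of the 20 fits that left out 1 array, with 0.44 without the second CL liver. Isg20 was lower at 5.73, 6.0, 5.72, 5.98 and 5.53 in CL livers, against 7.50, 6.54, 5.99, 7.07 and 6.12 in NC livers (log2 fold change -0.85 ± 0.22, adjusted p = 0.0074, limma). The NC livers were the more scattered ones, and on the signals as deposited the value was -0.34 and not called.

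The remaining 7 type I effectors did not pass the test. Usp18, which removes ISG15 from proteins and damps the type I receptor, had a log2 fold change of 0.43 (adjusted p = 0.0599, limma), and under trimmed-mean scaling it was 0.53 and called. Ifit1 and Ifit3, relatives of Ifit2, were at 0.01 (95% interval -0.40 to 0.43) and 0.26 (-0.04 to 0.57). Oasl1, which represses the translation of Irf7, was at -0.01 (-0.26 to 0.24), but at 0.50 and called on the signals as deposited. Rsad2, or viperin, which makes a chain-terminating nucleotide, was at 0.24, while its 2 dimmer probe sets gave 0.83 (adjusted p = 0.00037, limma) and 0.40. Mx1 and Mx2, dynamin-like GTPases that are annotated as transcribed pseudogenes in this strain's assembly, were at 0.51 and -0.58, and Mx2 had the widest interval of the 30 genes (-1.78 to 0.62). The Ifit genes are paralogues in 1 cluster on chromosome 19, and a probe set may read more than 1 of them.

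Of the regulators, Irf8 and Irf1 had the smallest p. Irf8, a factor that myeloid cells need for their development, measured 7.21, 7.98, 6.75, 7.05 and 6.83 in CL livers, against 5.59, 5.69, 6.36, 6.12 and 6.20 in NC livers. It was 2.25 times higher (log2 fold change 1.17 ± 0.26, adjusted p = 0.0024, limma), and its other probe set gave 1.37. Irf1, the factor that carries the gamma response to secondary targets, measured 9.50, 9.18, 8.59, 8.36 and 8.52 in CL livers and 7.49, 7.76, 8.10, 7.82 and 8.35 in NC livers. The margin between the groups was 0.01, and the log2 fold change was 0.93 ± 0.21 (adjusted p = 0.00303, limma).

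Irf7, which drives the transcription of interferon alpha genes, was 0.61 higher on the log2 scale (adjusted p = 0.0058, limma). Irf5, a factor of inflammatory macrophages, was 0.73 higher (adjusted p = 0.0395), and Irf9, the DNA-binding part of the type I complex, was 0.42 higher (adjusted p = 0.0498). These 2 calls were near the threshold: leaving out 1 array ended the Irf5 call in 7 of 20 fits and the Irf9 call in 16 of 20. A dimmer probe set of Irf5 gave 0.16. Stat2, the partner of Irf9, was at -0.06 (95% interval -0.41 to 0.29).

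Of the receptor chains only Ifngr1, the ligand-binding chain of the gamma receptor, was called in the brightest probe set. It measured 7.68, 8.24, 7.66, 7.90 and 7.82 in CL livers, against 7.03, 7.41, 7.48, 7.29 and 7.05 in NC livers, with no overlap (log2 fold change 0.61 ± 0.12, adjusted p = 0.0007, limma). Ifngr2, the signalling chain of that receptor, measured 5.97, 5.61, 5.40, 5.82 and 5.90 in CL livers and 5.48, 6.02, 6.23, 6.36 and 5.87 in NC livers (log2 fold change -0.25, 95% interval -0.59 to 0.09). Its other probe set gave 0.64 (adjusted p = 0.011, limma), so the probe sets of Ifngr2 disagree.

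Ifnar1, a chain of the type I receptor, measured 7.19, 7.27, 7.39, 7.14 and 6.96 in CL livers and 7.12, 7.46, 7.10, 7.39 and 7.24 in NC livers (log2 fold change -0.07, 95% interval -0.30 to 0.16). Ifnar2, the other chain, measured 10.58, 10.46, 10.66, 10.33 and 10.48 in CL livers, against 10.47, 10.36, 10.35, 10.34 and 10.49 in NC livers (log2 fold change 0.10, 95% interval -0.05 to 0.25). In both genes the groups overlapped. The 2 dimmer probe sets of Ifnar2 gave 1.74 (adjusted p = 0.00032) and 0.85 (adjusted p = 0.0002, limma), and with the mean of its 3 probe sets the gene was 0.90 higher and called. The choice of probe set thus sets the value of Ifnar2.

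Genes with an ISRE core in the window and genes without one were both called. Of the 11 measured genes with a core, 6 were higher in CL than in NC (Bst2, Gbp2, Gbp3, Ifih1, Ifitm3 and Irgm1; median log2 fold change 0.47), and of the 15 without a core, 10 were higher (median 0.61), beside 12.0% of all genes. Ifit1 and Ifit3, whose windows each hold a pair of cores as printed above, were not called, and Ifi47, Ifit2 and Xaf1, with none in the window, were.

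Lists of related genes that are not among the 33 were read in the same fit, in which 12.0% of all genes were higher and 11.3% lower. Of 39 measured other type I effectors, 18 were higher in CL than in NC and 1, Trim25, was lower, with a median log2 fold change of 0.44. Rtp4 (1.22), Trim30a (1.32), Trim34a (0.93) and Parp14 (0.66) had the smallest p. Of 18 other gamma-induced genes, 12 were higher and 0 lower, with a median of 0.95. They included Gbp8 (2.31), the immunoproteasome subunit Psmb8 (1.17) and the CXCR3 ligands Cxcl10 (2.01) and Cxcl9 (2.97). Of 13 signalling genes, 6 were higher, among them Il10rb (1.65), Jak1 (0.53), Jak2 (0.65) and Irf2 (0.52), and 1, Irf3 (-0.30), was lower. Of 13 sensors of foreign or damaged nucleic acid and lipopolysaccharide and their kinases, 5 were higher: Tlr7 (2.05), Tlr4 (1.30), Ikbke (0.96), Tlr3 (0.72) and Tmem173 (1.49), which encodes STING. Of 10 measured interferon genes 0 passed the adjusted p (limma), with Ifna2 higher (0.68) and Ifna11 lower (-1.49) at an unadjusted p under 0.05. The mean log2 signal of these 10 was 1.49 to 2.46 in CL livers and 2.03 to 2.57 in NC livers, under the 4.21 median of all probe sets.

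The second comparison set the GTPases beside the type I effectors in each liver. The mean log2 signal of the 6 GTPases minus that of the 14 type I effectors was 2.32, 1.59, 1.56, 1.63 and 2.09 in CL + AX, 1.79, 1.58, 1.63, 1.43 and 1.47 in CL + VE, 2.72, 1.52, 1.99, 1.71 and 1.74 in CL and 1.38, 1.16, 1.39, 1.27 and 1.08 in NC. Only changes of this difference between livers can be read, because signals of different probe sets are not on 1 scale. Every liver on a CL diet was above every NC liver. The difference averaged 1.84 ± 0.34 in CL + AX, 1.58 ± 0.14 in CL + VE, 1.94 ± 0.47 in CL and 1.26 ± 0.13 in NC (SD, n = 5 each), and no test was made of it because the genes were chosen with results of these data known.

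**Figure D2:**
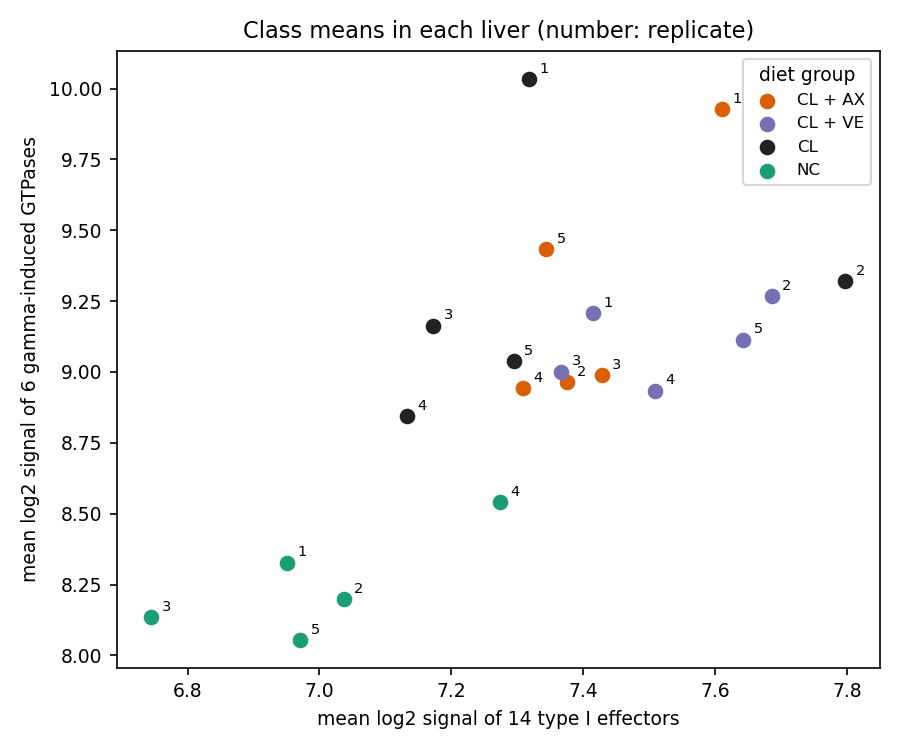
Mean log2 signal of the 6 GTPases (vertical) against that of the 14 type I effectors (horizontal), 1 point per liver, numbered by replicate and coloured by group. The first livers of CL and CL + AX stand at the top, at 10.03 and 9.93, and the second CL liver stands furthest right, at 7.80.

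In CL the 2 classes were not highest in the same liver, whereas in each other group their means were. In CL, all 6 GTPases were highest in the first liver, whereas 10 of 14 type I effectors were highest in the second. In CL + AX the first liver was highest for all 6 GTPases and for 6 of 14 type I effectors. The means of the GTPases and the type I effectors were both highest in the first CL + AX liver (9.93 and 7.61). They were also both highest in the second CL + VE liver (9.27 and 7.69) and in the fourth NC liver (8.54 and 7.27). The macrophage marker mean was highest in the second CL liver (9.96, against 8.60 to 9.23 in the other CL livers) and was 8.82 in the first. The dendritic cell (5.15) and stellate cell (9.15) marker means and Ptprc (9.77), a marker of all leukocytes, were also highest in the second CL liver. The B cell and plasma cell, neutrophil, endothelial cell and hepatocyte marker means were highest in other CL livers. The T and NK cell marker mean was 4.0 in the first CL liver and 4.29 in the second, and in CL + AX it was highest in the first liver (4.67, against 2.83 to 4.05 in the other CL + AX livers). The 18 other gamma-induced genes were also highest in the first CL liver, at 7.45, against 6.26 to 6.72 in the other CL livers.

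The third comparison asked what the supplements changed. No gene of the 30 passed the adjusted p in CL + AX against CL, nor did any of the 18193 genes (0%, limma). At an unadjusted p under 0.05, 1 of the 30 was higher and 0 were lower, against 4.03% and 4.02% of all genes. Ifngr1 was that gene. It measured 8.25, 8.48, 8.30, 8.34 and 8.20 in CL + AX livers, against the CL values given above, and only the second CL liver reached the CL + AX range. The log2 fold change was 0.46 ± 0.12 (95% interval 0.22 to 0.70, unadjusted p = 0.00073, adjusted p = 0.32, limma), in the direction away from NC. Over 30 refits with another setting or without 1 array or pair of arrays, it ran from 0.31 to 0.59, with an unadjusted p of at most 0.0116.

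Between CL + VE and CL, 0 of the 30 genes and 0% of all genes passed the adjusted p. At an unadjusted p under 0.05, 2 of the 30 were higher and 1 lower, against 4.85% and 2.70% of all genes (limma). Oasl1 measured 6.83, 6.89, 6.65, 6.84 and 6.69 in CL + VE livers, against 6.67, 6.64, 6.46, 6.31 and 6.25 in CL livers (log2 fold change 0.31 ± 0.12, unadjusted p = 0.017, adjusted p = 0.53, limma), but was only 0.069 higher on the signals as deposited (unadjusted p = 0.668). Mx2 measured 5.13, 4.60, 4.78, 5.60 and 4.86 in CL + VE livers and 4.20, 4.41, 2.45, 2.33 and 5.13 in CL livers, where 2 livers lay far below the rest (log2 fold change 1.29 ± 0.58, unadjusted p = 0.037, adjusted p = 0.62, limma). Its unadjusted p was over 0.05 in 7 of the 30 refits, up to 0.122 without the fourth CL liver. Over these refits the log2 fold change of Mx2 ran from 0.63 to 1.64. Mx2 was the dimmest of the 30 genes, with a mean log2 signal of 4.40, near the 4.21 median of all probe sets. The GTPase Iigp1 was the lower one, at 12.15, 12.35, 12.27, 12.33 and 12.10 in CL + VE livers, with a log2 fold change of -0.22 ± 0.10 (unadjusted p = 0.0398, adjusted p = 0.63, limma). Iigp1 had an unadjusted p over 0.05 in 10 of the 30 refits, among them those without the first or the third CL liver or the first or the fifth CL + VE liver, and it was at -0.09 under median centring.

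In CL + AX against CL + VE, 0 of the 30 genes and 0% of all genes passed the adjusted p. At an unadjusted p under 0.05, 2 were higher and 2 lower, against 3.66% and 6.59% of all genes. Ifngr1 was higher, with every CL + AX liver above every CL + VE liver at 7.65, 7.70, 7.95, 8.02 and 8.04 (log2 fold change 0.44 ± 0.12, unadjusted p = 0.00097, adjusted p = 0.21, limma). Irf1 was higher, at 9.57, 8.98, 8.76, 8.60 and 9.14 in CL + AX livers, against 8.48, 8.34, 8.57, 8.05 and 8.81 in CL + VE livers (log2 fold change 0.56 ± 0.21, unadjusted p = 0.014, adjusted p = 0.41, limma). Ifit1 was lower, at 7.12, 6.88, 6.77, 6.49 and 7.28 in CL + AX livers, against 7.44, 8.01, 6.91, 7.55 and 7.68 in CL + VE livers (log2 fold change -0.61 ± 0.20, unadjusted p = 0.0063, adjusted p = 0.32, limma). Oasl1 was lower, with every CL + AX liver, from 6.28 to 6.59, below every CL + VE liver (log2 fold change -0.31 ± 0.12, unadjusted p = 0.016, adjusted p = 0.42, limma). On the signals as deposited the direction of Oasl1 turned, to 0.11 (unadjusted p = 0.497), and Ifit1 was at -0.20 (unadjusted p = 0.398), while under median centring Irf1 was at 0.35 (unadjusted p = 0.112). With limma, 4 of the 30 passed the adjusted p on the signals as deposited, against 3.77% of all genes, and 1 (Ifit1) under median centring, against 6.17%.

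**Figure D3:**
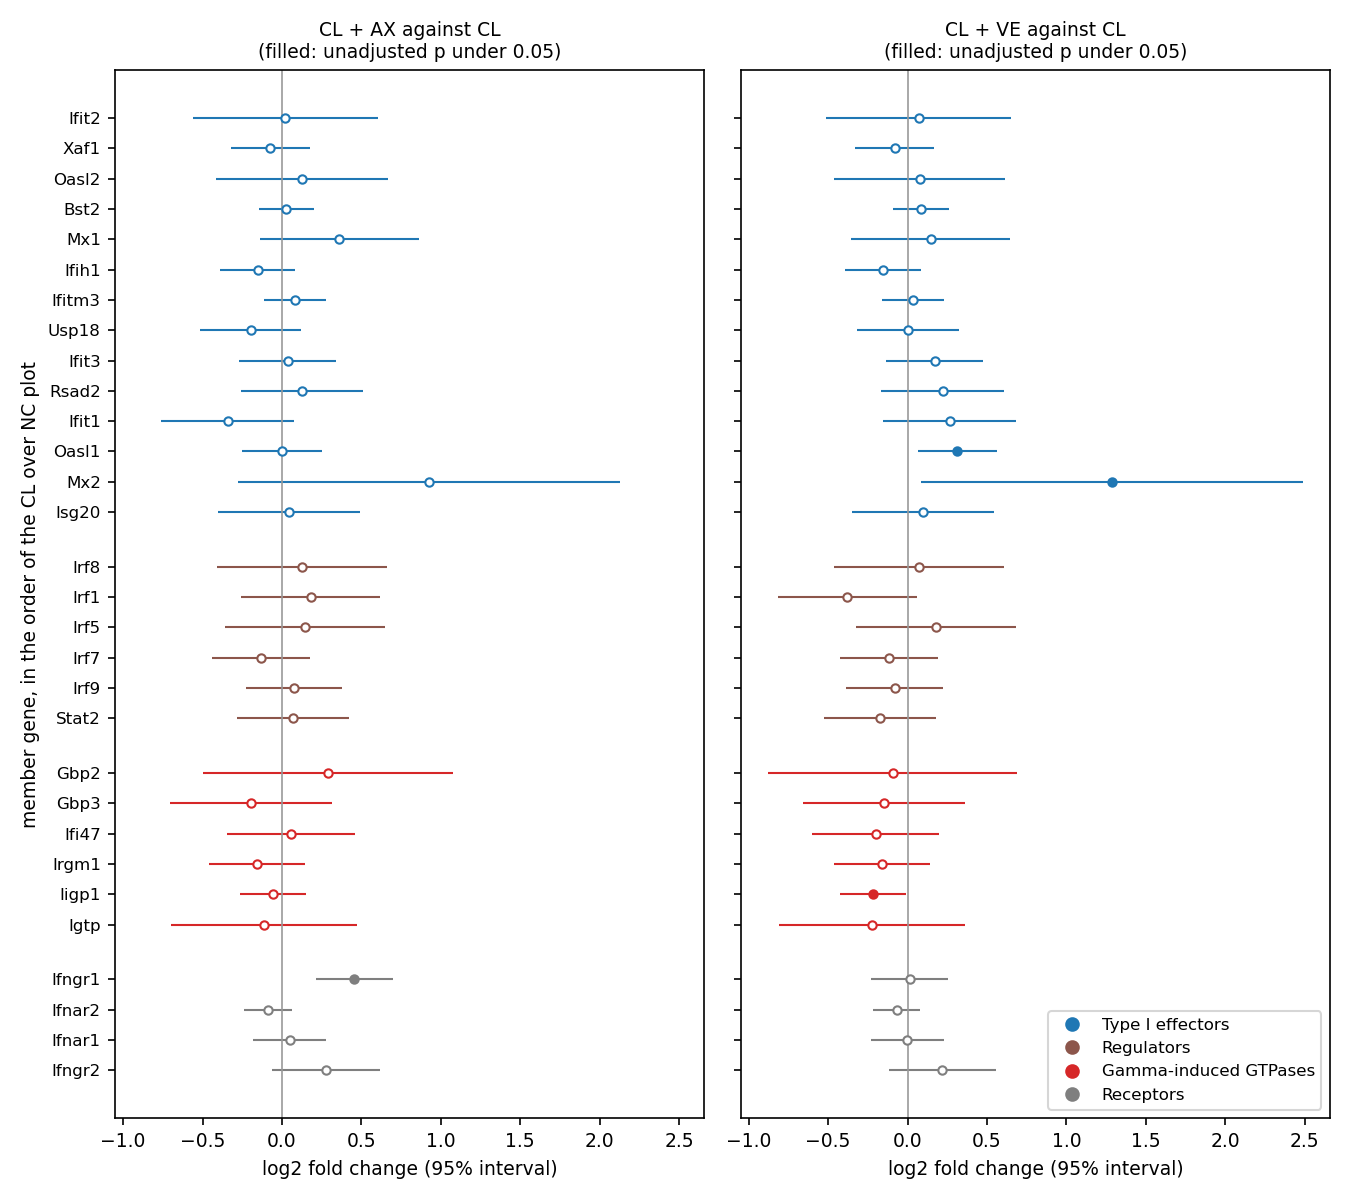
Log2 fold change of each of the 30 genes with its 95% interval in CL + AX over CL (left) and CL + VE over CL (right), in the same order as the plot of CL over NC. Filled points have an unadjusted p under 0.05: Ifngr1 at 0.46 on the left, and Oasl1 at 0.31, Mx2 at 1.29 and Iigp1 at -0.22 on the right.

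By class, the medians were small in both comparisons, which share the 5 CL arrays. In CL + AX against CL the median log2 fold change was -0.08 for the GTPases and 0.03 for the type I effectors, with 0.01 for all genes. In CL + VE against CL it was -0.18 for the GTPases, all 6 of which were below 0, and 0.09 for the type I effectors, 12 of 14 of which were above 0, with 0.03 for all genes. The 6 GTPases were below 0 under each of the 3 other scalings as well, whereas 4 of the 14 type I effectors were above 0 on the signals as deposited, where the median of all genes was -0.20. The GTPase value rests on the first CL liver, without which the median was -0.02 and Gbp2 and Igtp were above 0, at 0.17 and 0.11, and the type I median was 0.30 without the second CL liver. The signs of both classes turned with the scaling in CL + AX against CL, the GTPase median being 0.02 on the signals as deposited and the type I median -0.08 under median centring. Without the first CL liver the GTPase median there was 0.13. The widths of the intervals set what could be seen. For Gbp2 the 95% interval ran from -0.49 to 1.08 in CL + AX against CL and from -0.88 to 0.69 in CL + VE against CL. For Bst2 it ran from -0.15 to 0.20 in CL + AX against CL and from -0.09 to 0.26 in CL + VE against CL.

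The supplemented livers read as follows for the other genes given liver by liver above. Gbp2 measured 9.46, 7.77, 7.10, 7.67 and 8.56 in CL + AX livers and 8.24, 7.76, 7.66, 7.0 and 7.98 in CL + VE livers. Ifi47 measured 9.91, 9.51, 9.30, 9.23 and 9.38 in CL + AX livers and 9.16, 9.49, 9.15, 9.05 and 9.19 in CL + VE livers. All of these were above the highest NC liver. Irgm1 was at 9.09, 8.44, 8.77, 8.49 and 8.88 in CL + AX livers and 8.65, 8.98, 8.52, 8.96 and 8.55 in CL + VE livers. Iigp1 was at 12.64, 12.33, 12.39, 12.21 and 12.46 in CL + AX livers. These also stayed above every NC liver.

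Among the effectors, Bst2 measured 10.84, 10.54, 10.64, 10.63 and 10.75 in CL + AX livers and 10.72, 10.71, 10.66, 10.82 and 10.77 in CL + VE livers. Xaf1 measured 6.90, 6.93, 6.88, 6.76 and 6.73 in CL + AX livers and 6.67, 6.87, 6.61, 7.07 and 6.93 in CL + VE livers. Ifit2 was at 6.07, 6.15, 5.22, 6.23 and 5.74 in CL + AX livers and 5.10, 6.22, 6.09, 5.84 and 6.41 in CL + VE livers. For these 3 genes the supplemented livers lay above every NC liver. Ifitm3 was at 12.96, 12.82, 12.92, 12.87 and 12.95 in CL + AX livers and 12.92, 12.81, 12.73, 12.94 and 12.88 in CL + VE livers, again above NC. Ifih1 was at 8.65, 8.47, 8.48, 8.52 and 8.44 in CL + AX livers and 8.45, 8.68, 8.24, 8.73 and 8.46 in CL + VE livers, where both groups overlapped NC.

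Irf8 measured 7.59, 7.58, 6.42, 7.46 and 7.40 in CL + AX livers and 7.52, 7.16, 6.93, 6.64 and 7.93 in CL + VE livers. The third CL + AX liver was the lowest for Irf8, and it also had the lowest T and NK cell marker mean (2.83) and the lowest macrophage marker mean (8.69) of its group. It was lowest as well for the dendritic cell (4.01), stellate cell (7.84) and endothelial cell (7.02) marker means and for Ptprc (8.12). The B cell and plasma cell, neutrophil and hepatocyte marker means were lowest in other CL + AX livers. A link to Irf8 was not tested. Ifngr2 was at 6.22, 6.11, 5.96, 6.10 and 5.71 in CL + AX livers and 5.91, 5.71, 6.19, 5.94 and 6.05 in CL + VE livers. Ifnar1 was at 7.38, 7.31, 7.04, 7.38 and 7.07 in CL + AX livers and 6.99, 7.33, 7.39, 7.15 and 7.08 in CL + VE livers. Ifnar2 was at 10.39, 10.38, 10.51, 10.37 and 10.42 in CL + AX livers and 10.43, 10.33, 10.67, 10.43 and 10.29 in CL + VE livers. All 3 of these receptor chains overlapped CL and NC in the brightest probe set. With the mean of its probe sets, Ifnar2 was 1.03 higher in CL + AX against NC (adjusted p = 1.7e-05, limma). In CL + VE against NC it was 0.86 higher in that setting (adjusted p = 0.00018, limma).

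**Figure D4:**
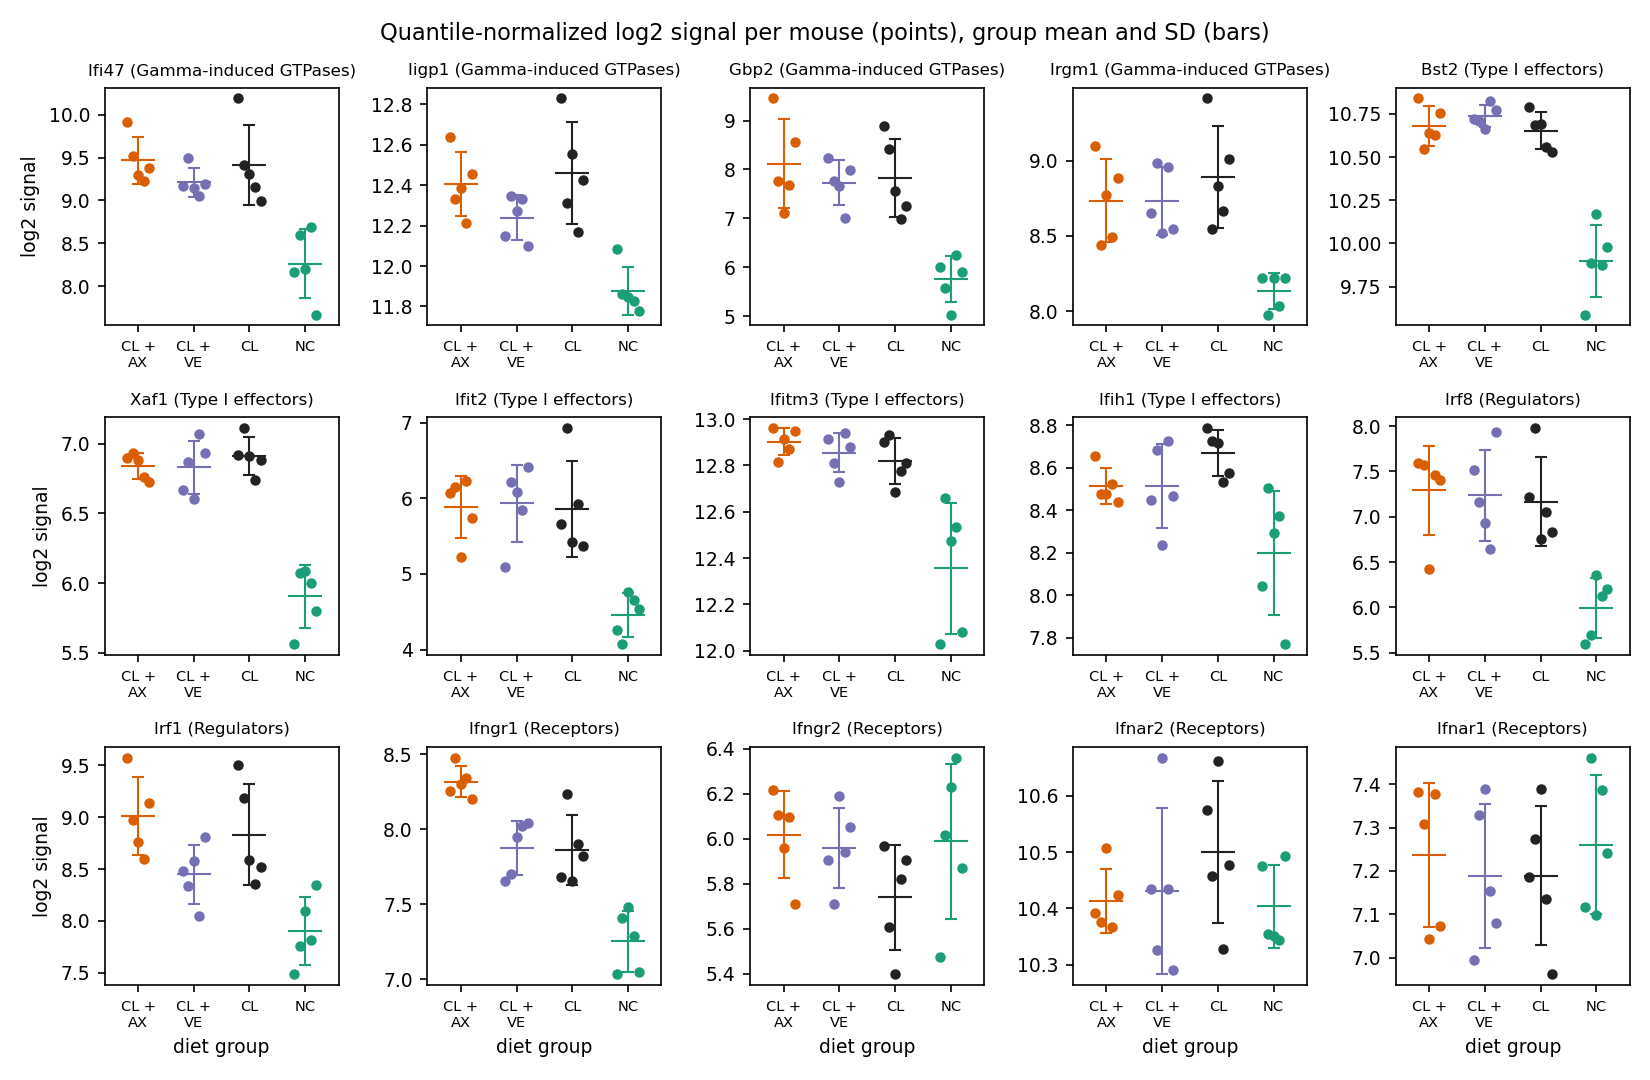
Quantile-normalized log2 signal of 15 genes in each liver (points), with the mean and SD of each diet group (bars, n = 5), in the order CL + AX, CL + VE, CL and NC. Every group on a CL diet lay above NC for Gbp2, Bst2 and Xaf1, and Ifngr1 was highest in CL + AX, at 8.20 to 8.48.

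The supplemented groups were also set against NC, whose arrays these comparisons share with CL against NC. In CL + AX against NC 17 of the 30 genes were higher and 1 was lower, against 12.0% and 11.3% of all genes. In CL + VE against NC 14 were higher and 1 was lower, against 10.2% and 7.27% of all genes (limma). In both groups 5 of 6 GTPases were higher, with median log2 fold changes of 0.78 in CL + AX and 0.77 in CL + VE, and in both the lower gene was Isg20. Under median centring Iigp1 was at -0.058 and Ifitm3 at -0.11 in CL + AX against NC, and neither was called. Irgm1, at 0.38, was not called there either. In CL + AX against NC 12 of the 30 genes were called higher under median centring, and 12 by the methods' t-test. In CL + VE against NC they were at 0.10 and 0.19 under median centring and not called, and Iigp1 was also not called on the signals as deposited (0.32) and under trimmed-mean scaling (0.18). Of the type I effectors, 6 of 14 were higher in CL + AX against NC and 5 of 14 in CL + VE against NC, with medians of 0.36 in CL + AX and 0.48 in CL + VE.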

How the data were processed

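Total RNA from the liver of each of the 20 mice was labelled and hybridized to an Affymetrix whole-genome mouse array by the authors, who computed 1 linear MAS5 signal intensity per probe set. The deposited intensity values were not scaled to a common level, and the order of hybridization is not given in the sources used here. Of 45101 probe sets, 64 controls were removed. Of the 45037 left, 34945 name 1 gene, 932 several and 9160 none.

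Signals were log2-transformed, quantile-normalized and fitted with limma 3.58.1 in R 4.3.3 (4 groups in 1 fit, 16 residual degrees of freedom, variance trend, Benjamini-Hochberg over the 45037 probe sets, threshold 0.05). Intervals are 95% intervals of the fit. Errors are the SE of a fold change or the SD over 5 mice, and the number of arrays limits the precision. The fit was tested on simulated data. Genes were read from the brightest probe set naming them alone.

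The 33 genes and all lists were chosen with earlier results of these data known, so the calls on them are not independent evidence. The text gives every measured gene in CL against NC, signals by liver for the 4 GTPases, 5 type I effectors, 2 regulators and 4 receptors with the smallest p there, supplement results with an unadjusted p under 0.05, and up to 4 genes per list by p. Other genes (Igtp, Oasl2 and Isg20 by liver, Trim25, Irf3, Tmem173, Ifna11 and the T cell genes) were named after their values were seen. The alternatives were 3 other scalings, a pseudocount of 16, a filter on dim probe sets, the mean of a gene's probe sets, no variance trend, the methods' t-test, a replicate block and each array left out in turn. One more, without the first CL and the first CL + AX liver, was added after seeing the data. Within groups the arrays correlated at 0.905 to 0.940 over 40 pairs, and no pair was identical. Promoter sequence and coordinates are those of RefSeq on GRCm38.p6.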

Additional observations from a re-analysis of the deposited data

Results flagged for a closer look

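In 6 of the 120 sets of 5 livers formed by the 30 genes and 4 groups, 1 liver stood apart from the others by Dixon's test, and chance alone gives about 1 in 20. Igtp was at 10.88 in the first CL liver, against 8.92 to 9.48 in the other CL livers. Rsad2 was at 9.88 in the second CL liver, against 8.89 to 9.12 in the other CL livers. Irf8 was at 6.42 in the third CL + AX liver, against 7.40 to 7.59 in the other CL + AX livers. In NC, Oasl2 was at 5.27 in the fifth liver, against 4.94 to 5.0 in the others, Usp18 was at 7.89 in the fourth, against 7.57 to 7.62, and Iigp1 was at 12.08 in the first, against 11.78 to 11.86. All values are log2 signals.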

How the results depend on the processing

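In CL against NC, the count of genes of the list called higher was 17, and it was 14 to 18 under median centring, trimmed-mean scaling, a pseudocount of 16, the filter on dim probe sets, the mean of a gene's probe sets, no variance trend and the replicate block (16). It was 24 on the signals as deposited and 6 by the methods' t-test, and each of these called 0 lower. For all genes, 2183 were higher and 2048 lower, with 5132 and 212 on the signals as deposited and 943 and 1016 by the methods' t-test. The share of calls that were higher was 51.5% in CL + AX against NC, with 97.4% on the signals as deposited, 26.2% under median centring and 62.2% under trimmed-mean scaling. It was 58.4% in CL + VE against NC, with 88.4%, 50.5% and 65.1% in the same settings. The median of all genes moved to 0.39 in CL against NC, 0.18 in CL + AX against CL, -0.20 in CL + VE against CL and 0.38 in CL + AX against CL + VE on the signals as deposited, and to -0.11 in CL against NC and -0.17 in CL + AX against CL + VE under median centring.

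Oasl1 was 0.50 higher in CL against NC (adjusted p = 0.022, limma) and 0.68 in CL + AX against NC on the signals as deposited, where Ifnar1 was 0.61 in CL + AX against NC. Under median centring Ifitm3 was -0.11, Iigp1 -0.058 and Ifnar2 -0.37 (adjusted p = 0.0057, limma) in CL + AX against NC. On the signals as deposited, 27 genes were higher and 0 lower in CL + AX against NC, where 2 were lower under median centring, and 0 were lower under trimmed-mean scaling and by the methods' t-test. In CL + VE against NC, 0 were lower on the signals as deposited, under trimmed-mean scaling and by the methods' t-test, which gave 6 higher.

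At an unadjusted p under 0.05 in CL + AX against CL, 4 were higher on the signals as deposited, 4 lower under median centring, 1 lower by the methods' t-test and 1 lower without the first CL and first CL + AX livers. In CL + VE against CL, 0 were higher and 7 lower on the signals as deposited. There 1 was higher with no variance trend and by the methods' t-test, and 0 were lower under these 2, under median centring, trimmed-mean scaling, the mean of probe sets and without the same pair of livers. In CL + AX against CL + VE, 14 were higher and 0 lower on the signals as deposited, 1 higher and 6 lower under median centring, and 1 lower under trimmed-mean scaling. There 4 genes passed the adjusted p on the signals as deposited (3.77% of all genes) and 1 (Ifit1) under median centring (6.17%), against 0 in the other settings.

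With each array left out in turn, the calls in CL against NC were 14 to 17 higher and 1 lower (all genes 1853 to 2274 higher and 1722 to 2102 lower), in CL + AX against NC 15 to 18 and 1, and in CL + VE against NC 12 to 15 and 0 to 1. At the unadjusted p they were 1 to 3 higher and 0 to 1 lower in CL + AX against CL, 1 to 3 and 0 to 2 in CL + VE against CL, and 1 to 2 and 2 to 3 in CL + AX against CL + VE, with 0 past the adjusted p in each. Those higher in CL + AX against CL numbered 3 without CL replicate 2 and 2 without CL replicate 5, and 1 was lower without CL + AX replicate 1. For CL + VE against CL, 1 was higher without CL replicate 3, 4 or 5 or CL + VE replicate 1 or 4, 2 were lower without CL replicate 4, and 0 were lower without CL replicate 1 or 3 or CL + VE replicate 1. Without CL + AX replicate 1, 1 was higher in CL + AX against CL + VE. Without replicate 1 or 4 of CL + VE or of NC, 0 were lower in CL + VE against NC. The mean of probe sets moved the receptor median minus that of all genes to 0.43 in CL against NC and 0.10 in CL + AX against CL. The same difference moved to 0.67 in CL + AX against NC and 0.40 in CL + VE against NC. The cause of these differences was not tested. Livers with the same replicate number deviated together at a correlation of -0.030 to 0.040 over 30 pairs (-0.078 to 0.081 for different numbers), and 8 of 20 arrays correlated best with their own number. That count was not compared with what unpaired livers would give, so it does not exclude a pairing. The labels give the numbers only as replicates, and the main fit did not read them as pairs. The replicate block ended 1 call of the list in CL against NC, Irf9 (adjusted p = 0.0633, limma).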
